A study of Mus musculus with 19 samples.

Results

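The matched B6 hotspots of the STUS/B6 hybrid are autosomal sites of meiotic double-strand breaks (DSBs). They were attributed to the B6 allele of Prdm9 and were cut on both homologs, though not always equally. They were chosen by 3 properties of a hotspot: its chromosome, its allele and its B6 fraction, the share of DMC1 reads assigned to the B6 homolog, which had to lie from 25 to 75%, ends included. This gave 2130 hotspots of the 5588 autosomal B6-allele hotspots with such a fraction (38.1%; 95% Wilson interval 36.9 to 39.4%). They were 34.8% of all 6115 autosomal hotspots of the B6 allele and 12.3% of the 17309 autosomal hotspots of any allele. Of the remaining B6-allele hotspots, 2813 were cut mainly on the STUS chromosome (fraction below 25%), 645 mainly on the B6 chromosome (above 75%), and 527 had no fraction. Because the fraction defined the matched hotspots, its values are given as a description and were not tested.

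The STUS/B6 hybrid is the first-generation male of a B6xSTUS cross, with C57BL/6J (B6, Mus musculus domesticus) and STUS/Jpia (STUS, Mus musculus musculus) as parents and 1 Prdm9 allele from each. Whole testis of adult animals was used, and the methods of the study give 10 weeks as the age at which hybrid males were analysed. There was 1 DMC1 library of STUS/B6, 1 of B6/SPRT (a B6xSPRETUS hybrid male with the B6 and the Mus spretus allele of Prdm9) and 1 of STUS/Hum (a B6xSTUS hybrid male in which a humanized allele stood in place of the B6 allele). For B6/SPRT, trimethylation of histone H3 at lysine 4 (H3K4me3) was also available, from 2 ChIP and 2 input samples whose values were deposited with 1 column for each measure. Whole testis mixes meiotic with other cells, so fewer cells in meiosis and fewer breaks per cell cannot be told apart in the DMC1 signal. With 1 library per genotype there was no replicate error, and no test between genotypes was possible. The Wilson intervals below, and the 95% intervals of medians (from binomial order statistics), describe the spread over the hotspots of a library, and hotspots are not replicates of a genotype.

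PRDM9 binds DNA through an array of zinc fingers, marks the nucleosomes beside its binding site with H3K4me3, and so places the DSBs of meiosis. The break ends are resected, and the recombinase DMC1 loads on the exposed single strands, which is why sequencing of the single strands bound by DMC1 maps breaks. Where a PRDM9 allele has been active in a lineage for long, its binding sites tend to be lost from the chromosomes of that lineage by biased gene conversion. In a hybrid such sites are bound mostly on the other homolog, whereas a matched site is one that PRDM9 can use on both. Binding at the same place on both homologs is thought to help the homologs find each other and synapse in the male germ line, and hybrids of domesticus and musculus mice are the classical case in which this fails.

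To show the DNA at such sites, the matched B6 hotspots whose center fell in the stretch from 250 bases before to 50 bases after a RefSeq gene start were looked up. There were 7 such hotspots among 13 of all B6-allele hotspots with a fraction, and 3 had sequence outside genes to print. The sequences below are those of the B6 reference (RefSeq, GRCm38.p6, the assembly that is also called mm10), on the plus strand, which is the strand of each gene. Capitals mark the hotspot center and 10 bases on either side. They differ in what was measured at the same place in B6/SPRT. The hotspot before Tgm4, a transglutaminase gene of the prostate, was matched in both crosses. The hotspot before the predicted gene Gm36841 was matched in STUS/B6 alone. The hotspot before the predicted gene Gm46886 had no counterpart in B6/SPRT.

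Tgm4, chr9:123034638-123034740: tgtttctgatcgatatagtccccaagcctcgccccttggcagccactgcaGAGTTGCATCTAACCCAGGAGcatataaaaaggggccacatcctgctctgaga

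Gm36841, chr5:116406606-116406679: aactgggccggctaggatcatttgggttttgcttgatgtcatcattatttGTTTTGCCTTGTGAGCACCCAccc

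Gm46886, chr4:81934043-81934161: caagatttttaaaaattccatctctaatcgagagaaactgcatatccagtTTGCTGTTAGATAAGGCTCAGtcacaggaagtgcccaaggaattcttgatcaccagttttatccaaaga

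At Tgm4 the center lay 43 bp from the gene start, the B6 fraction was 53.6% in STUS/B6 and 50% in B6/SPRT, and 59.1% of the H3K4me3 reads of B6/SPRT came from the B6 chromosome. At Gm36841 the center lay 14 bp from the start, with a B6 fraction of 60% in STUS/B6. In B6/SPRT all DMC1 reads with a known homolog at this place came from B6 (100%), as did 93.2% of the H3K4me3 reads. At Gm46886 the center lay 59 bp from the start, and the fraction of 26.7% was close to the lower limit. All 3 were of low or middling strength, with a DMC1 signal of 22.3, 41.1 and 28.1 in the order printed. Gene starts were rarely near matched hotspots in general. On the 18 autosomes for which starts were used, 31 of 2063 matched hotspots (1.50%) had a center within 1 kb of a gene start, against 1.71% of all B6-allele hotspots with a fraction. A center within an annotated gene was found for 61.5% of the matched hotspots and 60.6% of all B6-allele hotspots with a fraction, and within a protein-coding gene for 54.1 and 52.8%.

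Within the limits, the B6 fraction of the matched hotspots was spread evenly about equal use of both homologs. Its median was 50.2% and its quartiles were 40 and 60.9%. A fraction from 40 to 60% was found for 1053 hotspots (49.4%), one of 25 to under 40% for 517 (24.3%) and one above 60% for 560 (26.3%). The fraction was below 50% at 971 hotspots, exactly 50% at 92 and above it at 1067. A total of 26 hotspots lay exactly at 25% and 24 exactly at 75%. The number of reads behind each fraction is unknown, so no error can be given for a single fraction, and a hotspot near a limit may belong on either side of it. Just below the lower limit was a hotspot at 24.8% on chromosome 7 (position 11734535, DMC1 signal 193), and the nearest one above that limit was at 25.2% on chromosome 1 (position 64694679, signal 171). At the upper limit, the nearest hotspot inside was at 74.9% on chromosome 3 (position 63968686, signal 352) and the nearest outside was at 75.2% on chromosome 11 (position 28054089, signal 135). The X chromosome, which a male has in a single copy, served as a control for the assignment of reads. Of the 229 B6-allele hotspots of the X chromosome with a fraction, 0 were at 25 to 75%, which allows a share of up to 1.31% (3 counts of the total; the Wilson upper limit is 1.65%), and their median was 100%. Over all alleles it was 5 of 651 (0.768%). With a median of 100% the single X is that of B6, so this control covers only B6 reads assigned to STUS. It cannot show STUS reads that were lost or assigned to B6.

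The matched B6 hotspots had a lower median DMC1 signal than all B6-allele hotspots with a fraction, and weak and strong refer to this signal only. The paper cites work in which breaks at hotspots eroded on a single homolog were repaired more slowly. The number of breaks and how long they last cannot be told apart in DMC1 signal. DMC1 signal is the value given to each hotspot by the authors' caller and has no stated scaling to depth, so it was compared only within a library. In STUS/B6 the median signal of the matched hotspots was 37.5 (95% interval 35.7 to 40.5), with quartiles of 21.1 and 77.7 and a 5th to 95th percentile range of 12.0 to 229. All B6-allele hotspots with a fraction had a median of 64.5 (interval 61.2 to 67.3). Of the 2130 matched hotspots, 913 lay above the median signal of all hotspots of the library. B6-allele hotspots cut mainly on the STUS chromosome had a median of 137 (interval 130 to 144). Those cut mainly on the B6 chromosome had a median of 29.3 (interval 26.7 to 32.0), and those without a fraction 16.5. The matched hotspots of the STUS allele, 2952 in number, had a median of 37.9, within the interval of the matched B6 hotspots. Although 38.1% of the B6-allele hotspots with a fraction were matched, these carried 20.5% of the summed signal. The signal within the matched group was concentrated, since the 320 strongest (15.0%) held 50% of it, the strongest 100 held 25.3% and the strongest 20 held 7.94%. Signal differed little with the position within the limits, with medians of 40.5 at 25 to under 40%, 39.9 at 40 to 60% and 33.9 above 60%. The weakest matched hotspots were 3 with a tied signal of 7.625, close to the lowest value in the library. They lay in Tafa5, in Ctnna3 (an alpha-catenin of cell junctions) and near Gm20083, on chromosomes 15, 10 and 7.

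**Figure D1:**
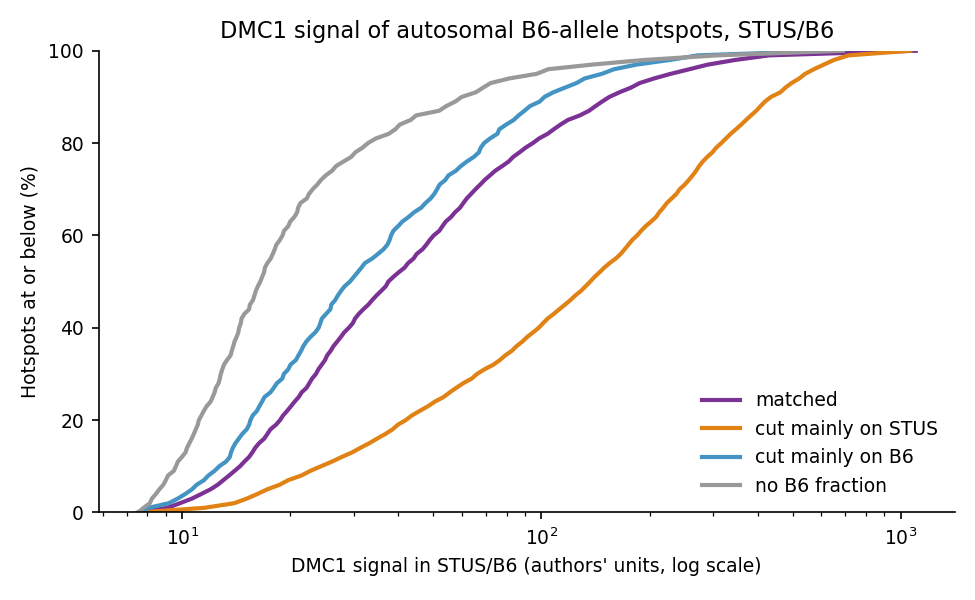
Cumulative distribution of the DMC1 signal (x axis, authors' units, log scale) over autosomal B6-allele hotspots of STUS/B6 (y axis, percent of hotspots at or below a signal), with a line for each of the 4 classes of B6 fraction. The line of the 2130 matched hotspots lies far to the left of the line of hotspots cut mainly on STUS (medians 37.5 and 137) and slightly to the right of the line of those cut mainly on B6 (29.3).

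The share of matched hotspots was lower among strong than among weak B6-allele hotspots. When all B6-allele hotspots with a fraction were ordered by signal and divided into 10 equal parts, the matched share was 55.3% in the weakest (95% Wilson interval 51.1 to 59.3%) and 54.2 and 57.4% in the next ones. It was 47.3% in part 4 (counted from the weakest), 49.7% in part 5, 39.5% in part 6, 30.8% in part 7 and 24.9% in part 8. In the strongest parts it was 13.4 and 8.59% (interval of the last 6.54 to 11.2%). The 3 weakest parts had overlapping intervals, and each interval from part 7 on lay below all those of the first 5. From the weakest to the strongest part, the share cut mainly on STUS went from 19.7 to 90.5%, and the share cut mainly on B6 from 25 to 0.894%. The median distance of matched hotspots from 50% was 8.16 percentage points in the strongest part and 10 in the weakest. It was 7.36 in part 9 and from 10 to 12.5 in parts 1 to 8. These distances have no interval and describe the fraction that chose the hotspots. The signal and the fraction come from the same reads, and the number of reads behind a weak hotspot is unknown. The part played by counting error in these shares and distances was not tested.

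**Figure D2:**
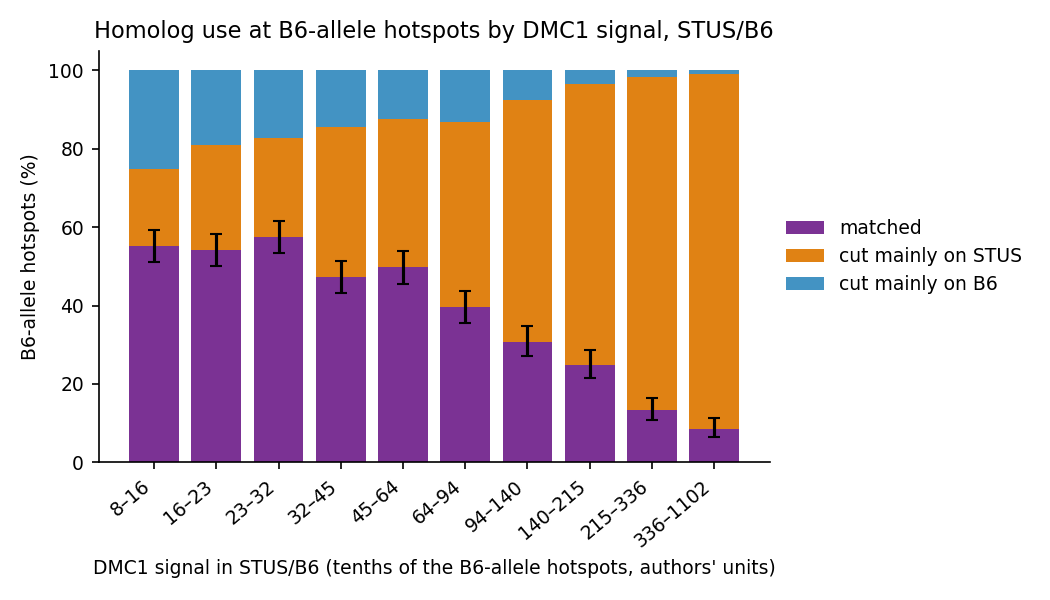
Share of autosomal B6-allele hotspots of STUS/B6 (y axis, percent) that were matched, cut mainly on STUS or cut mainly on B6, in 10 equal parts of the hotspots ordered by DMC1 signal (x axis, range of the signal in authors' units). Error bars are 95% Wilson intervals of the matched share, which was 55.3% in the weakest and 8.59% in the strongest part.

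Very strong hotspots were defined as those with a signal at or above the 95th percentile of the B6-allele hotspots with a fraction, which was 460. There were 280 of these (5.01% of the hotspots with a fraction), of which 20 were matched (7.14%; 95% Wilson interval 4.67 to 10.8%), 258 cut mainly on STUS and 2 cut mainly on B6. The 20 very strong matched hotspots were 0.939% of all matched B6 hotspots. With the 90th percentile in its place there were 48 matched of 559, and with the 99th percentile 3 of 56. The 20 lay on 12 of the 19 autosomes, with at most 3 on an autosome. A gene held 16 of them, and 60.6% of all B6-allele hotspots with a fraction lay within a gene. The fractions of the 20 ran from 38.0 to 73.3%, and 17 were from 40 to 60%, as were 49.4% of all matched hotspots. Since the fraction chose the matched hotspots, the count of 17 is only a description. A gene is named below only to give the place of a hotspot.

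The strongest of all B6-allele hotspots, whatever homolog was cut, was a matched one. It lay on chromosome 11 (position 89611917) in Ankfn1, named for its ankyrin repeats and fibronectin type III domain, with a signal of 1102 and 41.6% of reads from B6. In B6/SPRT its signal was 420, with 54.9% of DMC1 and 50.9% of H3K4me3 reads from B6, so both homologs were cut in both crosses and both were marked in B6/SPRT. The next had a signal of 696 and a fraction of 58.1% and lay on chromosome 12 (position 26689552), 76.7 kb from the long noncoding RNA gene 1700020D12Rik. A hotspot with a signal of 689 lay on chromosome 10 (position 92680958), 3.79 kb from Nedd1, which recruits gamma-tubulin to the centrosome, and had a fraction of 50.6%. Next came hotspots in the protocadherin gene Fat4 (signal 638, fraction 49.6%) and in Dlc1, a tumour suppressor gene (610, 41.4%). These first 5 lay on 5 different autosomes.

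The other 15 followed with signals from 595 down to 468. The hotspot 20.2 kb from the formin gene Diaph3 had a signal of 595 and a fraction of 56.1%. The one in Gabrb1, a GABA receptor subunit, had the lowest fraction of the 20, 38.0%, with a signal of 574. Both Nrg1, which codes for neuregulin, and its receptor gene Erbb4 held a very strong matched hotspot. The signal was 569 at Nrg1 on chromosome 8 (fraction 54.1%) and 495 within Erbb4 on chromosome 1 (51.6%). A further one on chromosome 1, 69.5 kb from Erbb4, had 504 (52.8%). The signal was 553 in Fto (an RNA demethylase; fraction 59.6%) and 542 in Neb (nebulin of the muscle thin filament; 55.6%). It was 529 in Pex19 (import of peroxisomal membrane proteins; 59.0%) and 519 in Dennd1a (an exchange factor of Rab GTPases; 49.7%). In Nf1, the Ras GTPase-activating neurofibromin, it was 507 with 51.2%, and in Tmprss7, a membrane serine protease, 488 with 73.3%, the highest fraction of the 20.

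Trrap, a scaffold of histone acetyltransferase complexes, held a hotspot with a signal of 501 and a fraction of 47.7%, and the histone deacetylase gene Hdac9 one with 490 and 70.4%. Braf, a kinase of the MAP kinase pathway, overlaps the noncoding gene Gm34389 at its hotspot (signal 483, fraction 45.5%). Ttk, a kinase of the spindle checkpoint, held the weakest of the 20 (468, 56.6%).

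All 20 very strong matched hotspots had a hotspot within 500 bp in B6/SPRT, with a median distance between centers of 26.0 bp. A DMC1 fraction was given there for 16, of which 11 were matched, 5 were cut mainly on B6 and 0 mainly on SPRT. The matched share was 68.75% (Wilson interval 44.4 to 85.8%), against 57.6% of all matched hotspots and 26.7% of all B6-allele hotspots read there. The 5 strongest matched in both crosses were those at Ankfn1, Nedd1, Fat4, Nrg1 and Dennd1a, with B6/SPRT fractions of 54.9, 58.4, 36.0, 53.0 and 48.3%. The 5 matched in STUS/B6 alone were those in Dlc1 (91.1% from B6 in B6/SPRT), Gabrb1 (96.4%), Fto (99.5%), Neb (98.5%) and Tmprss7 (89.0%). At these 5 sites the H3K4me3 reads of B6/SPRT leaned to B6 as well, at 77.5, 93.2, 95, 95.5 and 75.1%, from 132 to 579 SNP-carrying reads each. Of the 4 hotspots without a DMC1 fraction in B6/SPRT, H3K4me3 placed 53.4% of reads on B6 near 1700020D12Rik and 69.2% in Pex19. It placed 75.6% on B6 near Diaph3 and 90.6% in Braf, both above the upper limit. In all, 13 of the 20 were within 25 to 75% by H3K4me3 (65%, Wilson interval 43.3 to 81.9%). That interval held both the 81.8% of all matched hotspots and the 60.3% of all B6-allele hotspots read there. The very strong hotspots cut mainly on STUS gave another picture in B6/SPRT. Of the 121 with a DMC1 fraction there, 4 were matched (3.31%; Wilson interval 1.29 to 8.19%) and 116 were cut mainly on SPRT. Over the 233 with a usable H3K4me3 fraction the median was 16.2%, against 64.3% for the 20.

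**Figure D3:**
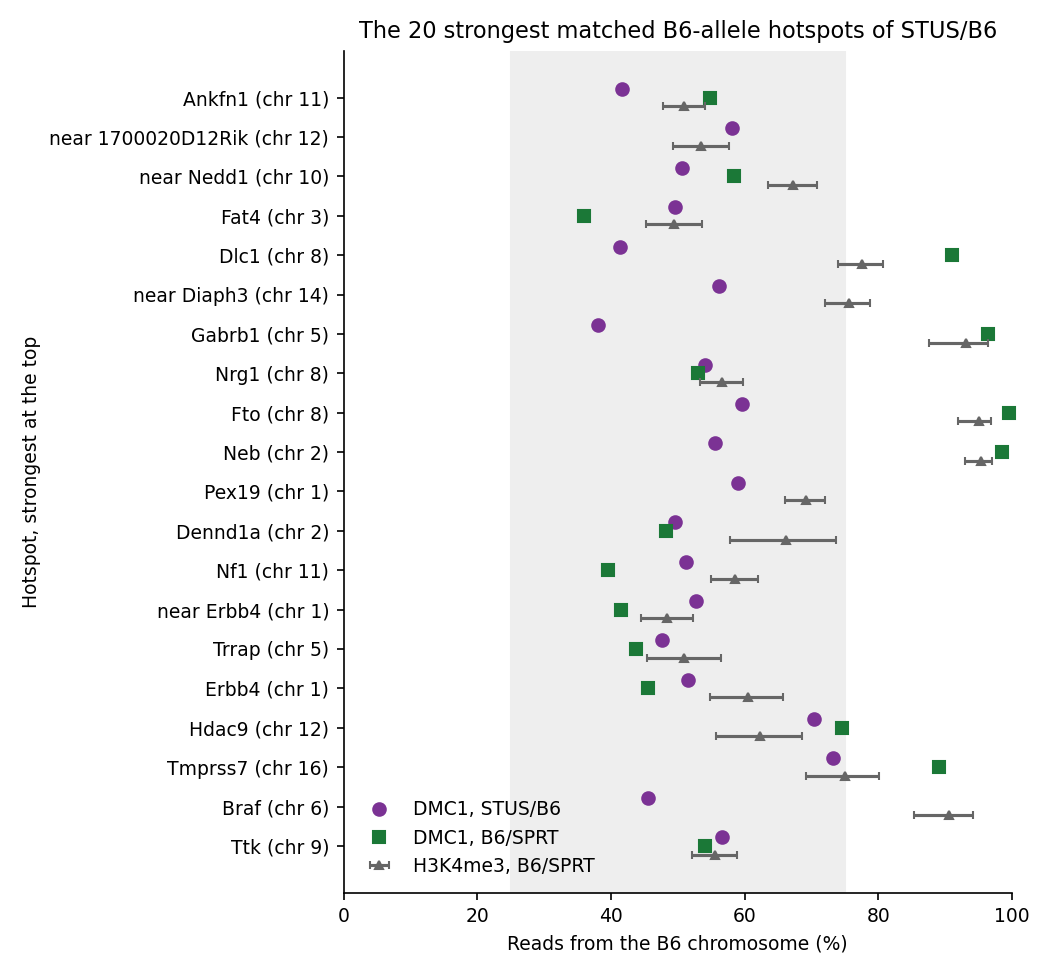
Percent of reads from the B6 chromosome (x axis) at the 20 matched B6 hotspots with the largest DMC1 signal in STUS/B6 (y axis, strongest at the top). Circles give DMC1 in STUS/B6, squares DMC1 in B6/SPRT (drawn for the 16 with a fraction) and triangles H3K4me3 in B6/SPRT with 95% Wilson intervals over SNP-carrying reads, which cover counting error only. The shaded band is 25 to 75%, and 5 squares and 7 triangles lie to the right of it and none to the left.

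Every autosome carried matched B6 hotspots, in numbers from 54 on chromosome 19 to 169 on chromosome 1, with a median of 111. Per length, measured between the outermost hotspots of an autosome, there were 0.893 per Mb in all, with the lowest density on chromosome 4 (0.689) and the highest on chromosome 16 (1.14). The matched share of the B6-allele hotspots with a fraction ran from 32.8% on chromosome 18 (95% Wilson interval 26.8 to 39.6%) to 41.5% on chromosome 1 (interval 36.8 to 46.4%). These intervals of the lowest and highest autosome overlapped. The share of the summed signal varied more, from 11% on chromosome 19 to 27.3% on chromosome 14. Chromosomes 4, 7, 13, 15, 17, 18 and 19 had 0 very strong matched hotspots, and chromosomes 1 and 8 had 3 each, with a median of 1. With 20 in all, these counts are too few to tell autosomes apart. The strongest matched hotspot of chromosome 19 had a signal of 153, and that of chromosome 7 had 180. Along the autosomes, the matched share was 37.9% in the proximal, 40.9% in the middle and 35.8% in the distal of 3 equal parts of the hotspot span, with densities of 0.887, 0.916 and 0.877 per Mb. The intervals of the middle and distal parts (38.7 to 43.2% and 33.7 to 37.9%) did not overlap, and both overlapped that of the proximal part (35.7 to 40.1%).

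Neighbouring matched B6 hotspots were a median of 0.654 Mb apart (95% interval 0.620 to 0.711 Mb). Of the 2111 distances between neighbours, 788 were at least 1 Mb, 358 at least 2 Mb, 166 at least 3 Mb and 47 at least 5 Mb, and these 47 made up 12.1% of the summed length. At the other end, 26 were under 10 kb, the shortest being 1470 bp. The densest stretch of up to 1 Mb held 7 matched hotspots, on chromosome 17 from 8631280 to 9582990. The longest gap of each autosome ran from 4.31 Mb on chromosome 19 to 8.19 Mb on chromosome 7.

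The longest gap of all lay on chromosome 7 between 4774969 and 12966673 (8.19 Mb). It ran from a hotspot in Il11, a cytokine gene, with a signal of 24.2 and a fraction of 33.3%, to one in the zinc finger gene Zfp324 with 30.3 and 25.5%. Inside it were 20 hotspots, of which 5 were of the B6 allele, 3 of them cut mainly on STUS and 2 on B6. One of these was the hotspot at 24.8% (position 11734535) that lay just below the lower limit, so the rank of this gap rests on that limit. With limits of 20 and 80%, or of 10 and 90%, the longest gap was the next one, on chromosome 15. The gap on chromosome 15 from 14297134 to 22162091 (7.86 Mb) held 24 hotspots. Of these, 4 were of the B6 allele, and all 4 were cut mainly on STUS. The flanking hotspots were 169 kb from Gm9630 (signal 115, fraction 69.1%) and 162 kb from Gm41278 (24.2, 42.3%). This stretch was poor in genes, with 4 protein-coding genes inside, whereas the next gap, on chromosome 17 from 32681886 to 40487214 (7.81 Mb), held 256. On chromosome 17 the flanking hotspots were a weak one 3.75 kb from the cytochrome P450 gene Cyp4f15 (signal 10.4, fraction 29.4%) and a strong one 32.6 kb from Gm34266 (418, 27.0%). The gap on chromosome 9 from 73224229 to 80794295 (7.57 Mb) ran between Gm27211 (signal 38.7, fraction 47.1%) and Gm39380 (33.8, 75%). It held 13 B6-allele hotspots, 9 of them cut mainly on STUS. The gap on chromosome 1 from 144971765 to 152279126 (7.31 Mb) ran from a hotspot 10.9 kb from Gm22681 (88.5, 64.6%) to one in Gm36920 (39.0, 39.7%), with 6 B6-allele hotspots inside, 5 of them cut mainly on STUS. With limits of 30 and 70% the longest gap was 12.8 Mb and lay on chromosome 10, from 101912538 to 114734232.

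The 10 longest gaps together covered 73.8 Mb and held 333 hotspots, which is 4.51 per Mb against 7.26 per Mb over all autosomes. For the B6 allele it was 1.15 per Mb against 2.56, but the gaps were not alike, with 1.80 hotspots per Mb on chromosome 12 and 8.10 on chromosome 14. A stretch without matched hotspots has fewer B6 hotspots by its definition. Of their 85 B6-allele hotspots, 60 were cut mainly on STUS, 13 mainly on B6 and 12 had no fraction. Over all autosomes the same classes held 2813, 645 and 527 hotspots, so those cut mainly on STUS were the largest class there too. The gaps also held 188 hotspots of the STUS allele, of which 61 were matched. The matched share of that allele over all autosomes is not given here. When matched hotspots of any allele were counted (5383 on the autosomes), the median distance was 0.272 Mb, 2 distances were at least 5 Mb and the longest was 7.11 Mb, on chromosome 12 from 17525391 to 24633198. The gap of the B6 allele at that place (17413440 to 24633198, 7.22 Mb), singled out after its values were seen, ran from Nol10, a nucleolar protein gene, and held 13 hotspots. Its 4 B6-allele hotspots all had no fraction.

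**Figure D4:**
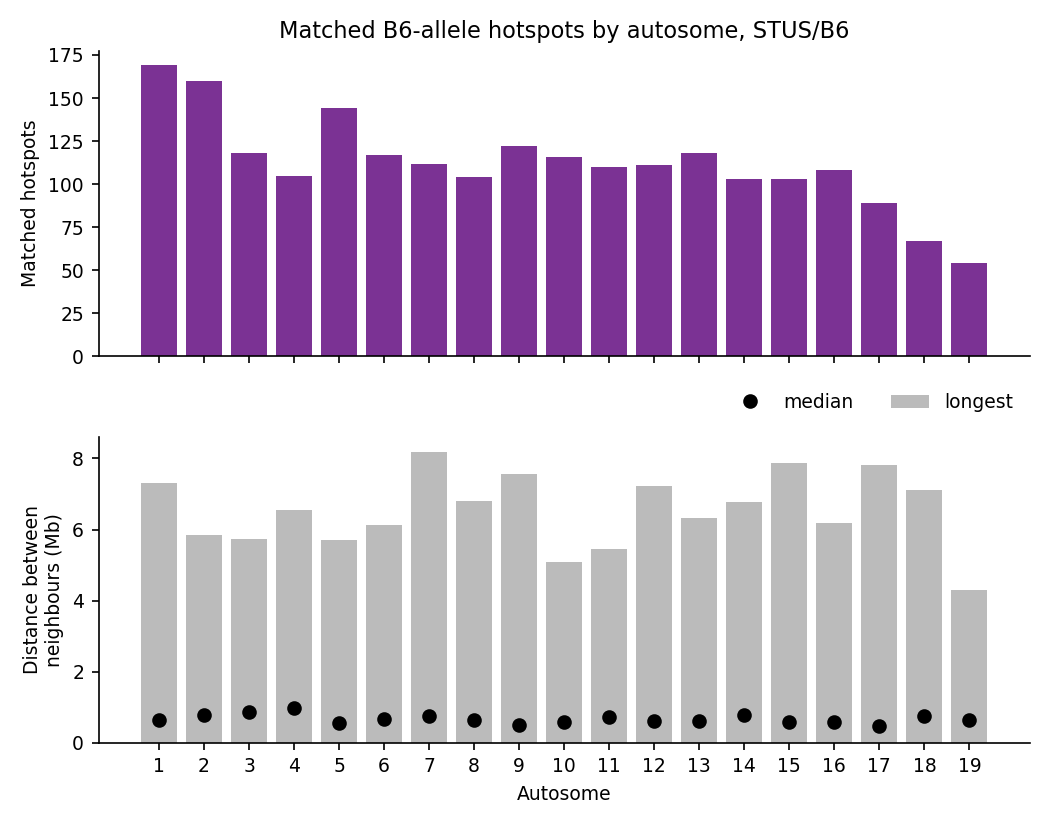
Number of matched B6 hotspots on each autosome of STUS/B6 (upper plot) and the distance between neighbouring ones in Mb (lower plot; bars give the longest, points the median). Counts ran from 54 to 169, and the longest distance was between 4.31 and 8.19 Mb while the medians stayed under 1 Mb.

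The B6 allele of PRDM9 is also present in B6/SPRT, where the other homolog is that of Mus spretus, so the same positions can be read against a second partner chromosome. A B6/SPRT hotspot with its center within 500 bp was found for 968 of the 2130 matched hotspots (45.4%; all B6-allele hotspots with a fraction 57.9%), of which 952 were attributed to the B6 allele and 16 to no allele. For hotspots cut mainly on STUS it was found for 2031 of 2813 (72.2%), and for those cut mainly on B6 for 234 of 645 (36.3%). Finding it went with strength. The 968 had a median STUS/B6 signal of 72.7 and the 1162 without a counterpart one of 24.8. When all B6-allele hotspots with a fraction were divided into 4 equal parts by signal, a counterpart was found for 15.9, 43.8, 76.4 and 98.9% of matched hotspots from the weakest to the strongest. The same shares were 34.9, 58.2, 77.1 and 84.8% for hotspots cut mainly on STUS. In the strongest of these 4 parts, 175 of 177 matched hotspots had a counterpart.

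Most of the matched hotspots that could be read in both crosses were matched in both. Of the 700 with a DMC1 fraction in B6/SPRT, 403 were at 25 to 75% (57.6%; 95% Wilson interval 53.9 to 61.2%; all B6-allele hotspots with a counterpart and a fraction 26.7%), 163 were cut mainly on B6 (23.3%) and 134 mainly on SPRT (19.1%). Of the 1134 such hotspots cut mainly on STUS, 70 were matched in B6/SPRT (6.17%; interval 4.91 to 7.73%) and 1043 were cut mainly on SPRT (92.0%). Of the 178 cut mainly on B6, 65 were matched (36.5%; interval 29.8 to 43.8%) and 79 were again cut mainly on B6. The median B6/SPRT fraction of the 3 groups was 46.7, 3.91 and 61.1%. The difference from hotspots cut mainly on STUS was present at each level of strength. In the 4 parts by signal, from the weakest, 45.9, 63.9, 55.1 and 59.7% of the matched hotspots were matched in B6/SPRT, against 11.1, 8.05, 9.12 and 3.36% of those cut mainly on STUS, and the Wilson intervals of these groups did not overlap in any part. For hotspots cut mainly on B6 the shares were 43.6, 26.4, 40.8 and 33.3%, and their intervals overlapped those of the matched hotspots in all parts but the second weakest.

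The share matched in B6/SPRT differed little with the position within the limits in STUS/B6, but the side of the cut did differ. Matched hotspots with a STUS/B6 fraction of 25 to under 40%, 40 to 60% and above 60% were matched in B6/SPRT in 52.1, 60.2 and 57.2% of cases, with overlapping intervals. In the same order, 33.1% (Wilson interval 26.4 to 40.7%), 14.0% (10.8 to 18%) and 16.8% (11.9 to 23.0%) were cut mainly on SPRT, and the median B6/SPRT fractions were 36.7, 48.2 and 51.2%. Hotspots that leaned to STUS thus had the larger share cut mainly on SPRT, with an interval apart from the other two. Across the 700 hotspots, Pearson's r between the fractions was 0.157 and Spearman's coefficient 0.162. These hotspots share the B6 parent and the B6 allele, and the limits hold the STUS/B6 fraction to a narrow range. The matched hotspots that were not matched in B6/SPRT fell at both ends. A B6/SPRT fraction of 95% or more was found for 93 (13.3%), the fullest of 20 equal classes, while 17 (2.43%) were under 5%. The 163 cut mainly on B6 in B6/SPRT were strong in STUS/B6, with a median signal of 118, against 76.3 for the 403 matched in both and 58.7 for the 134 cut mainly on SPRT. In B6/SPRT itself the median signal was 24.7, 26.1 and 48.0 for the same groups. In the strongest of the 4 parts the split of the 144 hotspots with a fraction was 86 matched, 44 cut mainly on B6 and 14 cut mainly on SPRT, and in the weakest part that of 85 was 39, 10 and 36.

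The same can be read from B6/SPRT. That hybrid had 649 matched autosomal hotspots of the B6 allele, and 597 of them had a hotspot within 500 bp in STUS/B6. Of the 551 with a fraction there, 417 were matched (75.7%; Wilson interval 71.9 to 79.1%), namely 400 of the B6 allele in STUS/B6 and 17 with no allele assigned there. The 403 sites matched in both were 18.9% of the matched B6 hotspots of STUS/B6, and the 400 of them assigned to the B6 allele in B6/SPRT were 61.6% of the matched B6 hotspots of that hybrid.

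H3K4me3 in B6/SPRT reads the marking of the homologs apart from the break. At the counterparts of matched hotspots, 790 of 966 (81.8%; 95% Wilson interval 79.2 to 84.1%) had 25 to 75% of H3K4me3 reads from B6 (all B6-allele hotspots with a counterpart and at least 20 SNP-carrying reads 60.3%). The median H3K4me3 fraction was 57.1%, with quartiles of 48.8 and 68.7%, and the depth behind it was 21 to 1303 SNP-carrying reads with a median of 195. At the counterparts of hotspots cut mainly on STUS, 994 of 2026 were within these limits (49.1%; interval 46.9 to 51.2%) and the median was 25.2%. At those of hotspots cut mainly on B6 it was 159 of 230 (69.1%; interval 62.9 to 74.7%), with a median of 62.4%. In each of the 3 groups, then, a larger share was matched by H3K4me3 than by DMC1, although more hotspots could be read by H3K4me3. Background reads come from both homologs and would draw the H3K4me3 fraction towards equal shares. Whether they were removed is not stated, and their part in this difference was not tested. Median enrichment over input, a ratio whose formula is not stated, was 6.13 (95% interval 5.78 to 6.45) at matched hotspots and 6.23 (6.05 to 6.41) at those cut mainly on STUS, and 5.03 (4.52 to 5.96) at those cut mainly on B6. DMC1 signal in B6/SPRT at the same places had medians of 28.3, 70.3 and 25.2. In the 4 parts by STUS/B6 signal, from the weakest, median enrichment was 4.54, 5.16, 6.18 and 10.3 at matched hotspots and 4.52, 4.32, 5.34 and 7.78 at those cut mainly on STUS, and the 95% intervals did not overlap in the 3 stronger parts.

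Among the matched hotspots, the 2 readouts of B6/SPRT ran together but not to the same limits. Across the 700 with both, Pearson's r between the DMC1 and H3K4me3 fractions was 0.872 and Spearman's coefficient 0.829, with both fractions taken from the same homologs and SNPs. Of the 403 matched in both crosses, 398 were also matched by H3K4me3 (98.8%), with a median of 55.6%. Of the 134 cut mainly on SPRT, 116 were still matched by H3K4me3 (86.6%; Wilson interval 79.8 to 91.3%), with a median of 41.1% against a median DMC1 fraction of 14.2%. Of the 163 cut mainly on B6, 37 were matched by H3K4me3 (22.7%; interval 16.9 to 29.7%), with a median of 85.0% against 95.9% for DMC1. Among these same 700 hotspots, then, more were matched by H3K4me3 than by DMC1. The 268 with a counterpart but no DMC1 fraction could be placed by H3K4me3 in 266 cases, of which 239 were matched (89.8%).

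**Figure D5:**
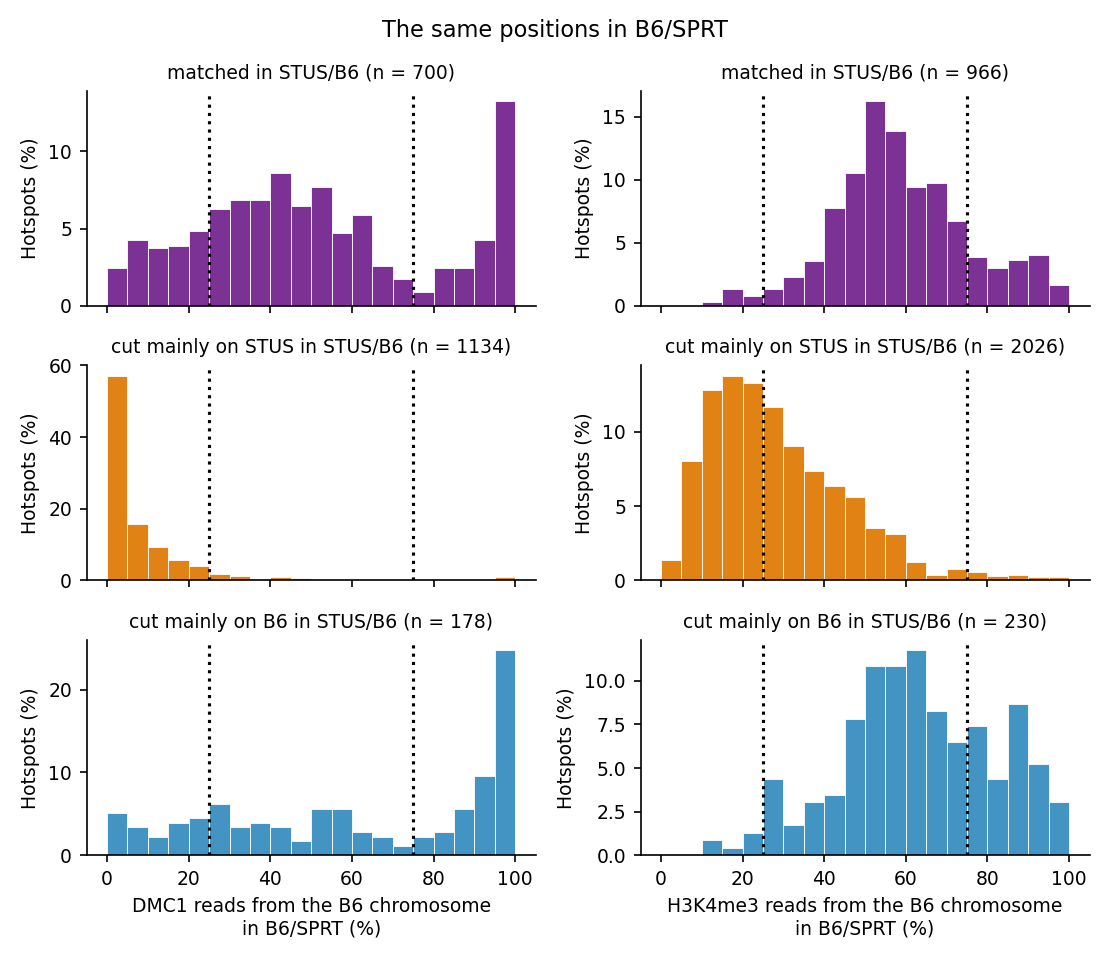
Percent of reads from the B6 chromosome in B6/SPRT (x axis, classes of 5 percentage points, left DMC1, right H3K4me3) at B6-allele hotspots that were matched, cut mainly on STUS or cut mainly on B6 in STUS/B6 (rows). The y axis is percent of the hotspots of a plot and differs in scale between plots, and dotted lines mark 25 and 75%. The matched hotspots had a DMC1 median of 46.7%, with 13.3% of them in the last class, and an H3K4me3 median of 57.1%. Those cut mainly on STUS had medians of 3.91 and 25.2%, and those cut mainly on B6 had 61.1 and 62.4%.

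In STUS/Hum the homologs are the same as in STUS/B6 but the B6 allele of PRDM9 is absent, and few of these hotspots had a counterpart there. The authors attributed hotspots to alleles by comparison with mice that carry other alleles. A STUS/B6 hotspot shared with STUS/Hum may therefore have been less likely to receive the B6 label. Loss with the allele and an effect of the labelling cannot be told apart here. A STUS/Hum hotspot within 500 bp was found for 8 of the 2130 matched hotspots (0.376%; Wilson interval 0.190 to 0.739%; all B6-allele hotspots with a fraction 0.268%), and all 8 were attributed to the humanized allele. Among them were hotspots in or near Macrod2, Mdn1, Gm9368, Rbfox2, Tnrc6b, Mov10l1 and Pnlip, which are named after their values were seen because they are few. The largest STUS/Hum signal among them was 376, in Mdn1, a gene of ribosome assembly, where the STUS/B6 signal was 22.2. Of the 8, 5 were matched in STUS/Hum as well. The exceptions were Rbfox2, a splicing regulator (37.5% from B6 in STUS/B6 and 93.2% in STUS/Hum), Tnrc6b of the microRNA silencing machinery (50.6 and 10%) and the pancreatic lipase gene Pnlip (27.1 and 23.7%).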

How the data were processed

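DMC1 single-stranded DNA sequencing and H3K4me3 ChIP-seq of testis were used from 3 of the 5 deposited tables (1 per genotype; 19 samples in the series). The submitters' processing notes name BWA and the build mm10. The authors called hotspots, attributed each to a PRDM9 allele from mice that carry other alleles, and split reads between homologs by SNPs, which for STUS came from a sequenced male. The authors deposited a DMC1 signal whose scaling is not stated, and a fraction of DMC1 reads from B6 without read counts, which leaves its depth unknown. The H3K4me3 values that the authors deposited were counts of ChIP and input coverage, the count of SNP-carrying reads, a fraction from B6 and a ratio of enrichment, taken as pooled over samples. Over the autosomal hotspots of B6/SPRT, ChIP coverage summed to 3136355 and input coverage to 355847. Left out were 7 other columns, which hold p-values and a sharing mark. Tables were matched to genotypes by the alleles they name and their numbers of hotspots (18069, 19247 and 10525 for STUS/B6, B6/SPRT and STUS/Hum).

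Hotspots of 2 libraries were paired to the nearest center within 500 bp. H3K4me3 fractions needed at least 20 SNP-carrying reads. Intervals are 95% Wilson or binomial order-statistic intervals, and no significance test was made. Genes are those of RefSeq GRCm38.p6. Named hotspots are the 20 strongest, the weakest, those nearest the limits, the ends of the 5 longest gaps, and the 5 strongest matched in both crosses or in STUS/B6 alone. Hotspots with promoter sequence, those shared with STUS/Hum and 1 further gap were added later. Hotspots and lists were chosen with earlier results of these data known. The tools were scipy 1.17.1, numpy 2.4.6 and pandas 2.3.3 under Python 3.11.15, with matplotlib 3.10.9 for figures, and the computations were tested on simulated data. Alternatives covered the limits, the percentile, gap ends, pairing distance, partner allele and read minimum. The place of 1 hotspot shared with STUS/Hum is not reported here. A motif comparison around centers, and its window sizes, was not run for want of a genome here, and lengths of autosomes were taken between the outermost hotspots.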

Additional observations from a re-analysis of the deposited data

How the results depend on the processing

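Of 39 alternative settings, 16 moved a result, which means a count by more than 1.5 times, a median or share to outside its 95% interval, and the longest gap by any amount. The number of matched hotspots was 1801 with limits of 30 to 70%, 2369 with 20 to 80% and 2865 with 10 to 90%. Their median signal was 89.4 when only those above the median signal of the library were kept. There were 48 and 3 very strong matched hotspots at the 90th and 99th percentile. The longest gap was 7.86 Mb, on chromosome 15, with limits of 20 to 80% and of 10 to 90%, 12.8 Mb with 30 to 70%, and 7.11 Mb when matched hotspots of any allele were counted. Gaps of at least 5 Mb numbered 17 with 10 to 90% and 2 with any allele. The share matched by DMC1 in B6/SPRT was 62.0% with limits of 20 to 80%, 50.1% with 30 to 70% and 73.2% with 10 to 90% in both libraries. It was 52.3% for counterparts at or above their median signal, and the H3K4me3 share was 75.4% for matched hotspots in the strongest 25% of B6-allele hotspots, both added after seeing the data. Counterparts in STUS/Hum numbered 4 within 250 bp and 18 within 1 kb. By construction, wider limits admit more hotspots, a floor on signal raises the median, and a lower percentile gives more very strong hotspots. A wider pairing distance likewise finds at least as many counterparts. Counting any allele adds hotspots that break gaps, and narrower limits take such hotspots away. The cause of the other shifts was not tested.

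No paired analysis was possible because each genotype has 1 DMC1 library and the H3K4me3 samples were deposited with 1 column for each measure. For the same reason, leaving out a replicate was not possible. The motif comparison and its window sizes were not run. Unknown read numbers leave the error of single fractions unknown, and values of 1 library per genotype carry no variation between mice.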
